A study of Mus musculus with 2 samples.

Results

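Small leucine-rich proteoglycans are secreted matrix proteins whose core is built from leucine-rich repeats. The family described here has 10 members, *Dcn*, *Bgn*, *Lum*, *Fmod*, *Aspn*, *Prelp*, *Ogn*, *Kera*, *Omd* and *Podn*, taken by symbol from the 32285 gene rows of both count matrices. Decorin (*Dcn*), biglycan (*Bgn*) and asporin (*Aspn*) form class I, in which decorin and biglycan carry chondroitin or dermatan sulfate chains. Lumican (*Lum*), fibromodulin (*Fmod*), keratocan (*Kera*), osteomodulin (*Omd*) and PRELP (*Prelp*) form class II, whose members can carry keratan sulfate chains or sulfated tyrosines. Osteoglycin (*Ogn*) belongs to class III and podocan (*Podn*) to class V. These proteins bind collagen fibrils and set their diameter and spacing, and several bind TGF-β, BMP and other growth factors. Fibromodulin is known from tendon, keratocan from the cornea, and osteomodulin from mineralized tissue.

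The cells were tdTomato+ cells sorted by flow cytometry from male *Clec3b*.creERT2; Ai14.R26.tdTomato mice, in which tamoxifen switches on the red reporter permanently in cells that express *Clec3b* at that time. The Cre is a knock-in at *Clec3b* itself, so the reporter marks cells that expressed the gene at the time of tamoxifen and their descendants. Tamoxifen was given before surgery, the right femur was fractured and stabilized with a pin at 6 weeks of age, and tissue was collected 3 weeks later. The callus library came from fractured femora and the intact library from uninjured femoral diaphyses with the muscle around them, tissue of 3 littermates being pooled for each. Whether the intact femora were the other limbs of the operated mice is not stated in the sources used here. Both libraries carry the same alleles and tamoxifen, and with 1 library per condition no difference between conditions was tested. Intervals in brackets are 95% counting intervals, which cover counting error only and not differences between mice.

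The intact library held 1872 barcodes and 12112002 UMIs (unique molecular identifiers, each standing for 1 counted RNA molecule), and the callus library 3987 barcodes and 36714322 UMIs. Barcodes with under 500 genes or over 10% of UMIs from mitochondrial genes were removed, which left 1207 intact and 3295 callus cells, and 1 barcode sequence occurred in both libraries. Stromal cells were those led by a list of stromal genes, 288 of the intact cells (23.9%) and 290 of the callus cells (8.80%), with median totals of 7461.5 and 7932 UMIs. Most other barcodes were led by haematopoietic, muscle or endothelial markers, although the sort was for a stromal reporter. The paper on these data found little tdTomato expression in haematopoietic and endothelial populations and regards them as artifacts of the sort, which was not tested here. The labels call the mice male, but *Xist* was detected in 97.5% of 202 intact and 98.6% of 213 callus stromal cells with at least 5000 UMIs, and 8 Y-linked genes had 0 UMIs, so the sex in the labels went against the data in both libraries.

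Stromal cells were gated by marker lists that hold no member of the family. The *Pi16*-type fibroblasts, known from the adventitia of vessels and fascia, numbered 181 intact and 104 callus cells. The *Col15a1*-type fibroblasts, known from the tissue parenchyma, numbered 60 and 30 cells. Tendon-like cells, led by *Fmod*, *Thbs4*, *Egfl6* and *Tnmd*, were mainly from the callus, with 44 cells against 8. Osteoblast-like cells, led by *Bglap* and *Bglap2* but also by the cartilage genes *Col11a2* and *Col11a1*, numbered 36 callus and 2 intact cells. BMSC-like cells (bone marrow stromal cells), led by *Adipoq* and *Cxcl12*, numbered 37 callus and 1 intact cell. A further 36 intact and 39 callus stromal cells were closest to no single list and are called ungated. Levels are given as counts per 1000000 UMIs (CPM), the UMIs of a gene summed over the cells of a group and divided by the group's total. *Clec3b* itself was at 1659 CPM in intact and 1744 CPM in callus *Pi16*-type cells, at 69.6 CPM in BMSC-like and at 1.35 CPM in osteoblast-like callus cells.

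Of the members, 8 sit in 3 short chromosomal clusters of the mouse genome. In GRCm38 with GENCODE vM21 coordinates, *Dcn* (chr10:97479609-97518143), *Lum* (chr10:97565128-97572703) and *Kera* (chr10:97606879-97613692) lie in a row on the plus strand, with 47.0 kb between *Dcn* and *Lum* and 34.2 kb between *Lum* and *Kera*. A second row on the plus strand holds *Aspn* (chr13:49544443-49567565), *Omd* (chr13:49582462-49592822) and *Ogn* (chr13:49608046-49624501), 14.9 and 15.2 kb apart. *Prelp* (chr1:133910304-133921414, minus strand) and *Fmod* (chr1:134037254-134048277, plus strand) are 116 kb apart. *Bgn* (chrX:73483602-73495933, plus strand) and *Podn* (chr4:108014791-108096445, minus strand) stand alone. The neighbours *Aspn* and *Omd* differed in pattern: among the 7 groups compared, *Aspn* was highest in tendon-like and *Omd* in osteoblast-like cells. The neighbours *Dcn* and *Lum* were alike, with a correlation of 0.90 over these groups.

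The 250 bases before the RefSeq start sites (GRCm38.p6) are shown for *Fmod*, with 393 UMIs in tendon-like and 1 in *Pi16*-type callus cells, and for the 3 neighbours of chromosome 13, whose levels parted between tendon-like, osteoblast-like and other cells. Sequences run 5′ to 3′ on the plus strand, and capitals mark the E-box CANNTG, bound by basic helix-loop-helix factors such as scleraxis, and the RUNX core TGTGGT, on either strand.
*Fmod*, chr1:134037004-134037253: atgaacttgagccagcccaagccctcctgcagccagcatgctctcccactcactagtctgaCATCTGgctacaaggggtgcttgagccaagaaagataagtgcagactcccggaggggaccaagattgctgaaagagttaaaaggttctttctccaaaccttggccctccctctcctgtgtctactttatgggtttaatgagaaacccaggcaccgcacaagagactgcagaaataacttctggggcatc
*Aspn*, chr13:49544193-49544442: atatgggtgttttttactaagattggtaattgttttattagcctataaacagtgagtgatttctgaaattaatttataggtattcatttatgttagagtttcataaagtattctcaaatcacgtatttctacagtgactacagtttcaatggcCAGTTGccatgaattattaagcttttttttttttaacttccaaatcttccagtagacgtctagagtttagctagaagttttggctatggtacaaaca
*Omd*, chr13:49582212-49582461: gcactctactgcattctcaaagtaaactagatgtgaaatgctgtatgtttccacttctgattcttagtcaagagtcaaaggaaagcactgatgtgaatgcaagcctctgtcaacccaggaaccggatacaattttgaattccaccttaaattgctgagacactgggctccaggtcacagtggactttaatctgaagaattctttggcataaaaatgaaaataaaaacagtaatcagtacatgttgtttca
*Ogn*, chr13:49607765-49608014: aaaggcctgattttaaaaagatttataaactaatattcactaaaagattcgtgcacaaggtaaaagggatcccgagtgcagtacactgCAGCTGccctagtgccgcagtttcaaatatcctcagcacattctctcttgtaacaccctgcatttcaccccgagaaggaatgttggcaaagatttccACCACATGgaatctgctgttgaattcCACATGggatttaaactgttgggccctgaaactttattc

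*Fmod* had 1 E-box, starting 189 bases before its start, *Aspn* had 1 at 97 bases, and *Ogn* had 3 at 162, 63 and 39 bases, the one at 63 overlapping a RUNX core match at 65. *Omd* held neither motif. An E-box was present in 66.2% and a RUNX core in 14% of all 32536 promoter windows of this length, so these matches are descriptions of common letters and not sites. The TATA motif TATAAA, in 12.3% of windows, had 2 matches each before *Aspn* and *Ogn*. Promoters of 8 members were matched by symbol, and those of *Dcn* and *Lum* are not shown.

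The family as a whole took 25488 UMIs, 1.23% of all stromal UMIs, in the intact library and 33852 UMIs, 1.21%, in the callus library. A 3′ UMI is counted once per molecule whatever the length of the RNA, so levels of different genes are set side by side here. Whether genes differed in capture or mapping was not tested, so shares and ranks are of counted UMIs. Summed over the 10 members, the level was 9123 CPM in intact and 10699 in callus *Pi16*-type cells. *Col15a1*-type cells were at 19694 and 17516. In the callus, tendon-like cells stood highest at 22339, osteoblast-like cells were at 6832 and BMSC-like cells lowest at 3294. Per cell the order was different, since the osteoblast-like cells held more UMIs. The mean was 141 family UMIs in osteoblast-like, 80.7 in *Pi16*-type and 129 in *Col15a1*-type callus cells. The plot of levels by group shows that single members spanned a far wider range than the sum.

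**Figure D1:**
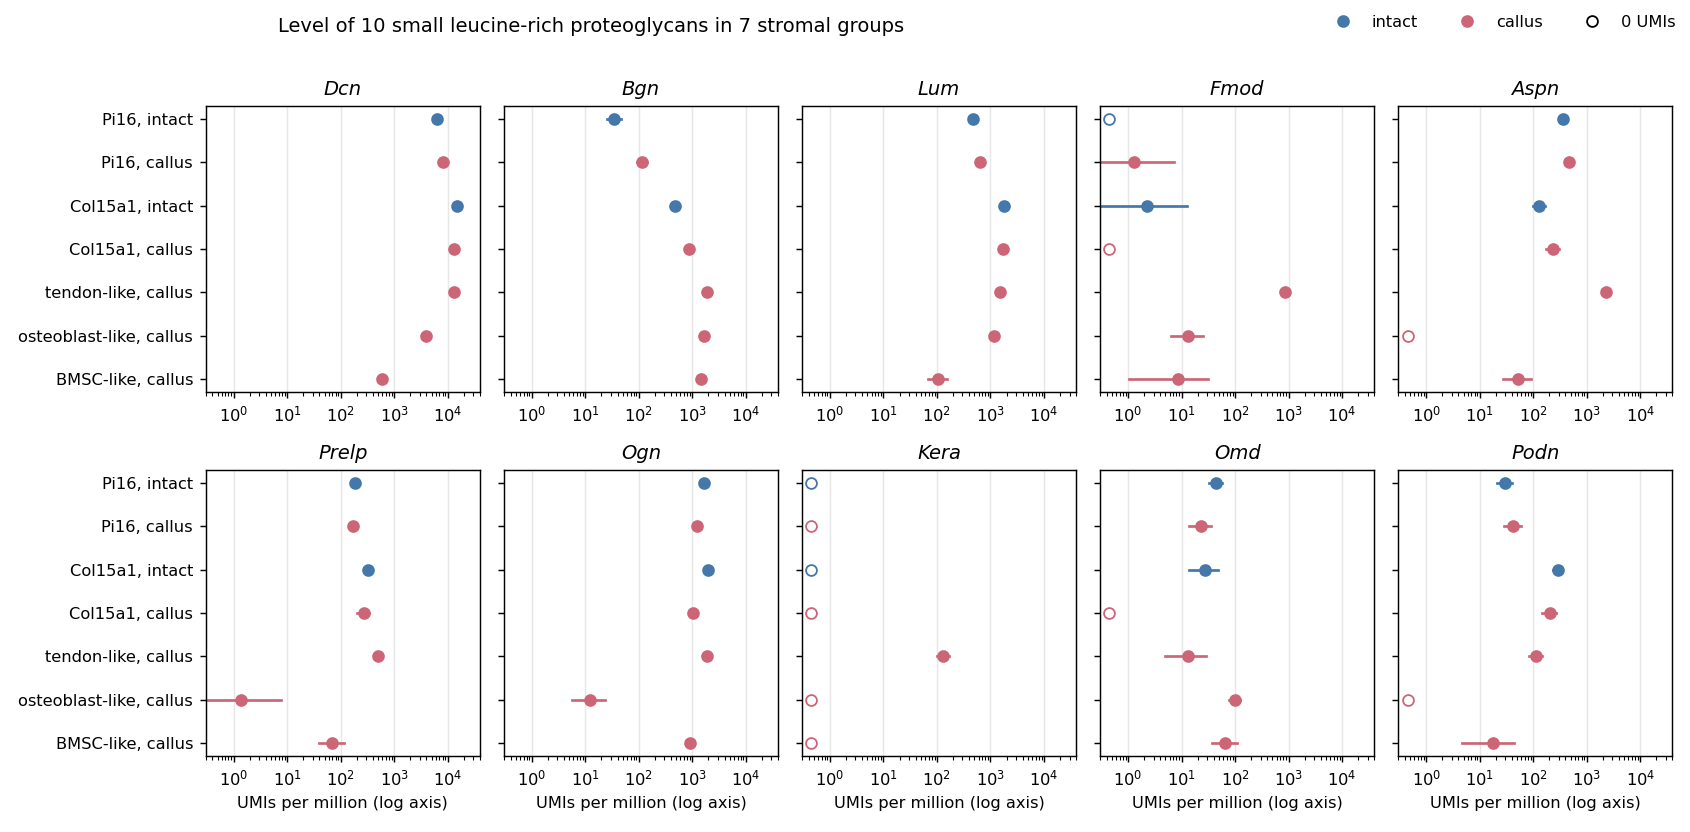
Level of each member in CPM (log axis) in 7 groups of stromal cells, 1 panel a gene; points are values, lines 95% counting intervals (cut at the left edge), blue the intact and red the callus library, open circles 0 UMIs. *Dcn* was highest in every fibroblast group, *Fmod* and *Kera* stood out in tendon-like cells, and *Aspn*, *Prelp*, *Ogn* and *Podn* were near or at 0 in osteoblast-like cells.

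Decorin, which coats type I collagen fibrils and binds TGF-β, was the leading member in all groups but 1. Its share of the family's UMIs was 69.4% in intact and 75.2% in callus *Pi16*-type cells. In *Col15a1*-type cells it was 74.8% and 75.3%, with 58.8% in tendon-like and 56.9% in osteoblast-like cells. Among all genes *Dcn* ranked 3rd in level in *Col15a1*-type cells of both libraries and in tendon-like cells, and 6th in *Pi16*-type cells. In BMSC-like cells it was at rank 226 and made up 18.1% of the family. There *Bgn* led with 44.6% and *Ogn* followed with 27.6%. In osteoblast-like cells *Bgn* (24.1%) and *Lum* (17.2%) filled most of the remainder, and *Ogn* was at 0.177%.

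**Figure D2:**
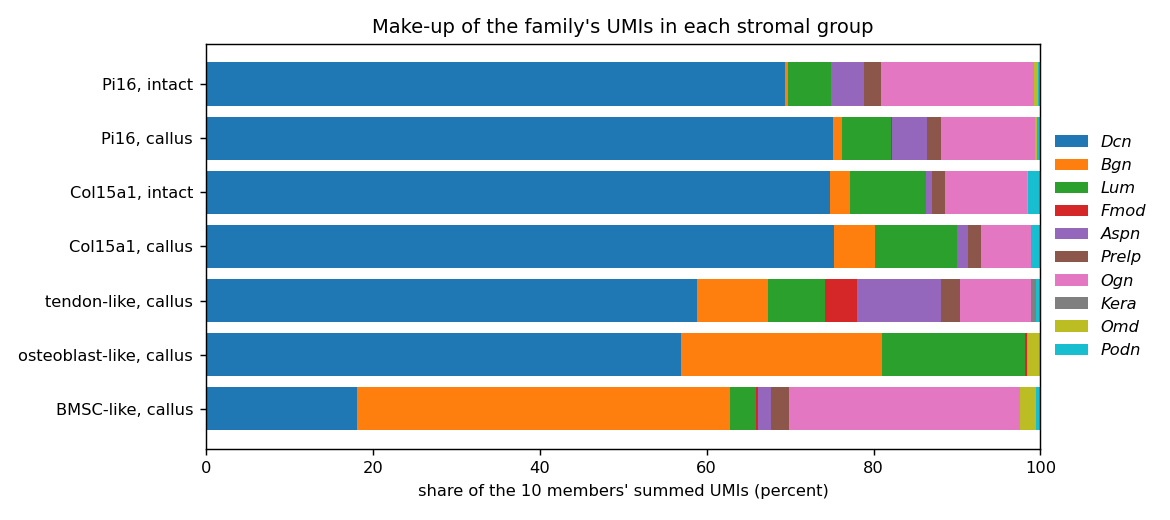
Share of the 10 members' summed UMIs (percent, horizontal axis) taken by each member in 7 stromal groups (rows). *Dcn* takes 56.9% to 75.3% in 6 groups and 18.1% in BMSC-like cells, where *Bgn* takes 44.6%.

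The first comparison within a library set *Col15a1*-type against *Pi16*-type fibroblasts, both being resident fibroblasts of uninjured tissue. In the intact library *Dcn*, *Bgn*, *Lum* and *Podn* were at least 2-fold higher in the *Col15a1* type and *Aspn* was lower, while *Fmod* and *Kera* had too few UMIs to be counted. *Bgn* was at 35.1 CPM (47 UMIs) in *Pi16*-type and at 477 (211 UMIs) in *Col15a1*-type cells of the intact library, 13.6-fold higher (9.87 to 19.1). Only 23 of 181 *Pi16*-type cells had a *Bgn* UMI, against 45 of 60 *Col15a1*-type cells. *Podn*, a binder of collagen I, was at 29.1 and 285 CPM, 9.78-fold higher (6.78 to 14.4). *Lum* was at 465 and 1793 CPM, 3.85-fold higher (3.47 to 4.29).

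*Dcn* was at 6331 CPM in intact *Pi16*-type and at 14725 in intact *Col15a1*-type cells, 2.33-fold higher (2.25 to 2.40). Every one of the 181 and 60 cells carried *Dcn*. Per 10000 UMIs the lowest, median and highest *Pi16*-type cell had 13.4, 63.4 and 191 *Dcn* UMIs, and the *Col15a1*-type cells 6.87, 156 and 310, so the cells of the types overlapped although the sums differed. *Aspn*, whose product binds TGF-β and calcium, went the other way, at 364 CPM in *Pi16*-type and 129 in *Col15a1*-type cells, 2.82-fold lower in the latter (2.14 to 3.78). *Prelp* at 1.69-fold, *Ogn* at 1.16-fold and *Omd* at 0.63-fold were not 2-fold apart.

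Of the 8 members with at least 20 UMIs over both types, 4 were at least 2-fold higher and 1 at least 2-fold lower in intact *Col15a1*-type cells. Over all genes counted the same way, 8.02% were higher and 9.53% lower. In the callus, 3 of 7 members were higher (*Bgn* 7.34-fold, *Lum* 2.74-fold and *Podn* 4.84-fold) and none lower, where 7.75% of all genes were higher and 9.34% lower. *Dcn* there was at 13190 against 8041 CPM, a ratio of 1.64 (1.57 to 1.71), and *Aspn* at 231 against 457, a ratio of 0.50 (0.37 to 0.68), 1.98-fold lower and so just short of the limit, which it passed under 4 of the alternatives in the closing section. For *Bgn*, *Podn*, *Lum*, *Dcn* and *Aspn* the higher type was therefore the same in both libraries.

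Fracture callus was next set against intact tissue within each fibroblast type. In *Pi16*-type cells 1 of 8 members was at least 2-fold higher, *Bgn*, and none was lower, against 3.39% higher and 2.97% lower among all genes. *Bgn* was at 35.1 CPM in intact and at 116 in callus cells, 3.30-fold higher (2.30 to 4.80). The gene had a UMI in 31 of 104 callus and 23 of 181 intact cells. A single callus cell held 31 of the 91 callus *Bgn* UMIs, and without that cell the ratio was 2.22. The other members moved less: *Podn* 1.44, *Lum* 1.36, *Dcn* 1.27, *Aspn* 1.26, *Prelp* 0.91, *Ogn* 0.73 and *Omd* 0.53 times the intact level.

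In *Col15a1*-type cells none of 7 members was 2-fold apart, where 6.16% of all genes were higher and 4.65% lower in the callus. *Bgn* was at 477 and 851 CPM, 1.78 times the intact level (1.46 to 2.18), and *Aspn* at 129 and 231, 1.79 times (1.20 to 2.66). *Ogn* was at 1937 and 1045 CPM, 0.54 times (0.46 to 0.62). Under other settings *Aspn* passed 2-fold, at a log2 ratio of 1.91 with Leiden clusters, 1.14 with the mean over cells and 1.65 without cells near the gate limit, and so did *Ogn* with Leiden clusters (-1.02). Single cells also moved these values. For *Aspn* the ratio was 2.26 (1.48 to 3.47) without the intact cell that held 13 UMIs. Without the callus cell that held 11 *Aspn* UMIs it was 1.45 (0.95 to 2.22), an interval that includes 1. For *Ogn* the ratio was 0.47 without the callus cell that held 39 UMIs and 0.56 without the intact cell that held 52. *Omd* had 12 UMIs in the intact and 0 in the callus cells, which is too few to be counted. *Bgn* was thus above and *Ogn* below the intact level in both fibroblast types. *Aspn* was above it in both, but in *Col15a1*-type cells not beyond counting error without the callus cell that held 11 UMIs. *Dcn* was 1.27 times the intact level (1.23 to 1.31) in *Pi16*-type and 0.90 times (0.86 to 0.94) in *Col15a1*-type cells.

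Red cell RNA moved with these groups. Haemoglobin UMIs (*Hba-a1*, *Hbb-bs* and *Hbb-bt*, all 3 detected) stood at 7731 CPM in intact and 14241 in callus *Pi16*-type cells, and at 20239 and 176 in *Col15a1*-type cells. The 4 general haematopoietic markers, *Ptprc* among them, summed to 2.99 and 65.0 CPM in *Pi16*-type cells and to 11.3 and 18.1 in *Col15a1*-type cells. Their part in the differences was not tested. Requiring the stromal score to exceed the erythroid score as well, which 20 cells failed, left the counts of members at 1 and 0.

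**Figure D3:**
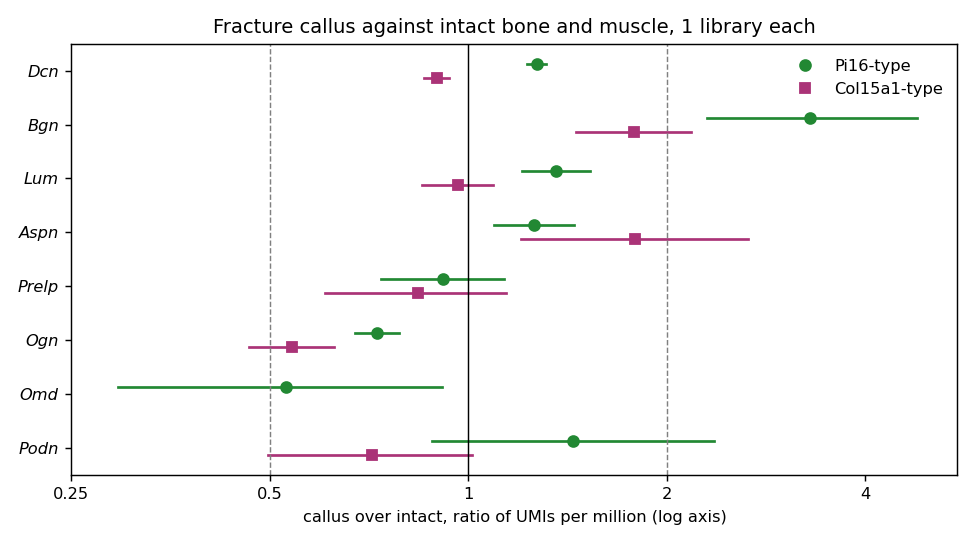
Ratio of the callus to the intact level (log axis) for members with at least 20 UMIs in *Pi16*-type (circles) and *Col15a1*-type cells (squares), with 95% counting intervals; the dashed lines mark 2-fold. *Bgn* at 3.30 in *Pi16*-type cells is the only point beyond 2-fold, and *Dcn* lies on opposite sides of 1 in the types.

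Tendon-like cells of the callus were the only group with UMIs of all 10 members. This rests on *Kera*, the only member that the *Pi16*-type and BMSC-like callus cells lacked. Against *Pi16*-type callus cells, 7 of 10 members were at least 2-fold higher and none lower, where 8.09% of all genes were higher and 11% lower. Of the 7, *Fmod* and *Kera*, with 1 and 0 UMIs in the *Pi16*-type cells, were counted through the tendon-like cells alone. They could therefore only be called higher. *Fmod*, which regulates tendon fibril assembly, had 393 UMIs (863 CPM) in 23 of 44 tendon-like cells and 1 UMI in the *Pi16*-type cells, a ratio of 677 (121 to 26809). *Fmod* was not a gate marker, but tenomodulin (*Tnmd*) and scleraxis (*Scx*) were. The *Col15a1*-type callus cells had 0 *Fmod* UMIs. With a floor of 3 counts for them the tendon-like level was 63.5-fold higher, and the counting interval of the ratio started at 51.4.

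*Bgn* was in all 44 tendon-like cells, at 2.91, 14.0 and 50.1 UMIs per 10000 in the lowest, median and highest cell. Its level of 1903 CPM was 16.4-fold that of *Pi16*-type cells (13.2 to 20.6) and 2.24-fold that of *Col15a1*-type cells (1.91 to 2.63). *Aspn* was at 2248 CPM, 4.91-fold above the *Pi16* type (4.35 to 5.56) and 9.74-fold above the *Col15a1* type (7.35 to 13.2). *Prelp*, which anchors basement membranes to connective tissue, was at 500.5 CPM, 2.91-fold above the *Pi16* type (2.34 to 3.63). *Lum* was 2.40-fold and *Podn* 2.66-fold higher. *Dcn* at 1.63, *Ogn* at 1.57 and *Omd* at 0.57 times were not 2-fold apart.

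Set against *Col15a1*-type callus cells, 4 of 9 members were higher (*Bgn*, *Fmod*, *Aspn* and *Kera*) and none lower, where 7.41% of all genes were higher and 8.88% lower. *Fmod* and *Kera*, with 0 UMIs in the *Col15a1* type, were again counted through the tendon-like cells alone. *Dcn* stood at 13144 CPM in tendon-like and 13190 in *Col15a1*-type cells, a ratio of 1.00 (0.95 to 1.04), and *Lum* at 1519 and 1729, a ratio of 0.88 (0.77 to 0.998). The tendon-like cells thus did not differ from the *Col15a1* type in *Dcn* beyond counting error. They exceeded it at least 2-fold in *Bgn*, *Aspn*, *Fmod* and *Kera*, the last with 57 of its 59 UMIs in 2 cells. *Prelp* at 1.87 times (1.40 to 2.54) and *Ogn* at 1.82 times (1.58 to 2.12) were higher but short of 2-fold. *Podn* was lower, at 0.55 times (0.36 to 0.84). In the tendon-like cells the haemoglobin genes stood at 15964 and the 4 haematopoietic markers at 108 CPM, the highest haematopoietic sum of any group, and their part in these ratios was not tested.

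*Fmod* and *Kera* were uneven among the tendon-like cells. One cell of 8297 UMIs had 108 *Fmod*, 44 *Kera* and 20 *Chad* UMIs (chondroadherin, a related repeat protein of cartilage and tendon). A second cell of 9660 UMIs had 92 *Fmod*, 13 *Kera* and 10 *Chad* UMIs, and neither had an *Aspn* UMI. These 2 cells held 200 of the 393 *Fmod* and 57 of the 59 *Kera* UMIs, and all 30 *Chad* UMIs. Without them the log2 ratio of *Fmod* to *Pi16*-type cells was 8.44 in place of 9.40, that of *Prelp* 1.16 in place of 1.54, and *Kera* was below the 20 UMIs needed, which left 6 members higher. No stromal cell outside the tendon-like gate had a *Kera* UMI. With these 2 cells included and the floor used for *Fmod* above, *Kera* was 33.9-fold higher than in *Pi16*-type cells. The counting interval of that ratio started at 26.7.

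The 44 cells were also split by whether they had a UMI of *Tnmd* or *Scx*, markers of tendon cells proper, a split chosen after the values were seen. The 15 cells with such a UMI had *Fmod* at 1776 CPM and the 29 without at 224, 7.93-fold apart (6.01 to 10.6), while all 59 *Kera* UMIs lay in the former. *Prelp* was 2.27-fold higher with *Tnmd* or *Scx* (1.73 to 3.00). The 2 cells highest in *Fmod* were among the 15, and without them *Fmod* was 3.50-fold (2.56 to 4.83) and *Prelp* 1.44-fold higher (1.05 to 1.97), and 2 *Kera* UMIs were left. *Ogn* went the other way, at 1173 against 2421 CPM, 0.48 times (0.41 to 0.57), and *Lum* at 1093 against 1817, 0.60 times (0.51 to 0.71). *Bgn* at 1.17 and *Dcn* at 0.86 times hardly differed, and *Aspn* was 1.44-fold higher (1.27 to 1.63). *Aspn* and *Fmod* occurred together in 21 cells, *Aspn* alone in 19, *Fmod* alone in 2 and neither in 2, and per 10000 UMIs *Aspn* exceeded *Fmod* in 35 cells and fell below it in 7.

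**Figure D4:**
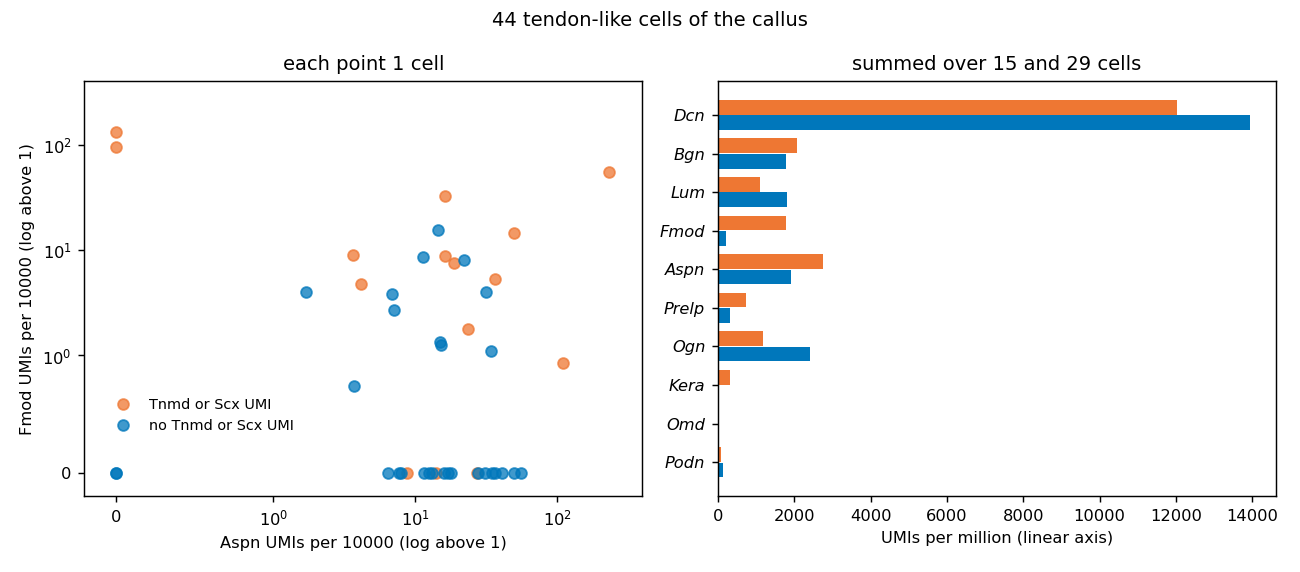
Left, *Fmod* against *Aspn* UMIs per 10000 (both axes log above 1) in each of the 44 tendon-like callus cells; right, CPM (linear axis) of each member summed over the 15 cells with (orange) and the 29 cells without (blue) a *Tnmd* or *Scx* UMI. The 2 cells highest in *Fmod* have 0 *Aspn*, and *Fmod* is at 1776 against 224 CPM.

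In osteoblast-like callus cells most of the family's UMIs were of *Dcn*, *Bgn* and *Lum*, and *Ogn*, *Prelp*, *Aspn* and *Podn* were nearly absent. Against *Pi16*-type callus cells 2 of 8 members were at least 2-fold higher and 5 at least 2-fold lower, where 8.67% of all genes were higher and 36% lower. Of the 5, *Ogn*, *Prelp*, *Aspn* and *Podn* had under 20 UMIs in the osteoblast-like cells and were counted through the *Pi16*-type cells. Of the 2, *Omd* had 18 UMIs in the *Pi16*-type cells and was counted through the osteoblast-like cells. The high share of lower genes stood beside a total in which *Col1a1* and *Col1a2* alone took 21.9% of UMIs, against 1.14% in *Pi16*-type cells, and the median of all genes was -0.62 on the log2 scale. Biglycan, abundant in bone matrix, was at 1646 CPM, 14.2-fold higher (11.5 to 17.8), in 33 of 36 cells. Osteomodulin was at 98.3 against 22.9 CPM, 4.29-fold higher (2.53 to 7.63).

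*Ogn*, once named osteoinductive factor, was at 12.1 against 1214 CPM, 100-fold lower (52.5 to 219.7), with 9 UMIs in 3 of 36 cells, 5 of them in 1 cell. *Aspn* had 0 UMIs against 359, at least 113-fold lower with a floor of 3 counts over the group, and *Podn* 0 against 33, at least 10.4-fold lower. *Prelp* had 1 UMI, a ratio that was 128-fold lower with an interval of 22.5 to 5081. The chromosome 13 neighbours *Aspn*, *Omd* and *Ogn* thus parted, with *Omd* at its highest level of the 7 groups where both flanking genes were at or near their lowest. *Lum* was at 1175 against 632 CPM, a ratio of 1.86 (1.66 to 2.08).

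*Dcn* was at 3886 CPM, 2.07-fold lower than in *Pi16*-type cells (1.98 to 2.16), but the osteoblast-like cells held more RNA, with a median of 21559 UMIs against 7383.5. Per cell the mean was 80.1 *Dcn* UMIs in osteoblast-like and 60.7 in *Pi16*-type cells, so the lower share of UMIs stood beside a higher mean per cell. *Dcn* was found in 32 of the 36 osteoblast-like cells, and 2 cells held 597 of the 2885 UMIs. Relative to the median of all genes the log2 difference was -0.43, less than 2-fold. *Ogn*, *Prelp*, *Aspn* and *Podn* were still at least 2-fold lower on that scale, and *Lum* was higher by 1.51. The means per cell were 0.25 and 9.16 UMIs for *Ogn* and 0.00 and 3.45 for *Aspn*.

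Among the osteoblast-like cells 21 had at least 100 *Bglap* (osteocalcin) UMIs per 10000 and 15 had fewer, again a split made after the values were seen. *Dcn* was 1.53-fold (1.39 to 1.68), *Bgn* 1.42-fold (1.24 to 1.64) and *Lum* 1.34-fold higher (1.14 to 1.58) in the high *Bglap* cells. All 9 *Ogn* UMIs were in the low *Bglap* cells. *Omd* had a ratio of 0.93 (0.55 to 1.63), which was 1.54 (0.77 to 3.39) without the cell that held 11 of its UMIs.

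BMSC-like cells of the callus had the lowest family level. Of 8 members, 2 were at least 2-fold higher than in *Pi16*-type cells and 5 at least 2-fold lower, where 17.7% of all genes were higher and 15.1% lower. Of the 5, *Aspn*, *Prelp* and *Podn* had under 20 UMIs in the BMSC-like cells and were counted through the *Pi16*-type cells. *Dcn* was at 596 against 8041 CPM, 13.5-fold lower (11.4 to 16.1). Per 10000 UMIs the lowest, median and highest cell had 0, 0.86 and 223 *Dcn* UMIs, and 2 cells held 72 of the 137 UMIs. *Lum* was 6.05-fold (4.02 to 9.54), *Aspn* 8.76-fold (4.95 to 17.1), *Prelp* 2.47-fold (1.47 to 4.45) and *Podn* 2.42-fold (0.86 to 9.39) lower, the last resting on 4 UMIs. Without the BMSC-like cell that held most UMIs of the member, the ratio was 0.09 in place of 0.17 for *Lum*, 0.07 in place of 0.11 for *Aspn* and 0.21 in place of 0.41 for *Podn*.

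*Bgn* and *Ogn* were the leading members in the BMSC-like cells. *Bgn* was at 1471 CPM in 35 of 37 cells, 12.7-fold above the *Pi16* type (10.0 to 16.2), with 0, 14.2 and 49.3 UMIs per 10000 in the lowest, median and highest cell. *Ogn* was at 909 CPM in 33 cells, 0.75 times the *Pi16*-type level (0.64 to 0.87). *Omd* was at 65.3 CPM, 2.85-fold higher (1.34 to 5.98), on 15 UMIs. Without the BMSC-like cell that held 4 of these UMIs the ratio was 2.16 (0.92 to 4.83), an interval that includes 1. The BMSC-like cells also had 761 *Mpo* and 466 *Elane* CPM, granulocyte genes that were at most 9.05 and 13.6 in *Pi16*-type, *Col15a1*-type, tendon-like and osteoblast-like callus cells. *Ptprc* was at 0, but the 4 general haematopoietic markers that include it summed to 52.2 CPM (12 UMIs), against 65.0 in callus *Pi16*-type cells. The part of these genes was not tested. Neutrophils of the callus, for comparison, had 6.93 *Bgn* and 7.65 *Ogn* CPM.

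**Figure D5:**
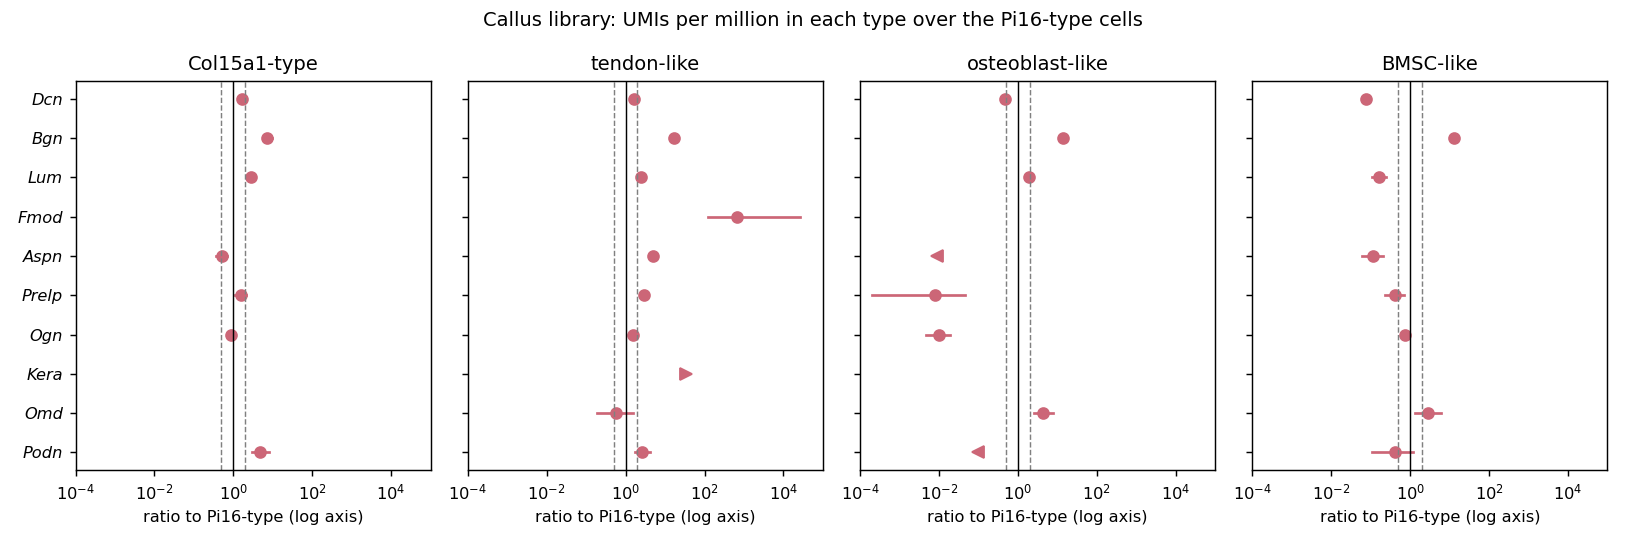
Ratio of each type's level to that of *Pi16*-type cells (log axis) in the callus library for members with at least 20 UMIs over the pair. Lines are 95% counting intervals, triangles values at a floor of 3 counts where a side had 0 UMIs, dashed lines 2-fold. *Bgn* is higher in all 4 types, 7.34-fold to 16.4-fold, while the other members part between the types.

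*Bgn* was at least 2-fold above the *Pi16* type in each of the other 4 callus types. Its CPM was 1903 in tendon-like (1778 to 2034), 1646 in osteoblast-like (1555 to 1741) and 1471 in BMSC-like cells (1318 to 1636), of which the last 2 overlapped in their intervals. Per cell the mean was 33.9 *Bgn* UMIs in osteoblast-like, 19.7 in tendon-like and 9.14 in BMSC-like cells, a different order. By CPM *Dcn* ordered the callus types differently from *Bgn*. *Col15a1*-type and tendon-like cells did not differ beyond counting error, and *Pi16*-type, osteoblast-like and BMSC-like cells followed in that order with separate intervals. For *Lum* the levels of tendon-like and *Col15a1*-type cells differed little, the ratio of 0.88 having an interval that ended at 0.998. For *Ogn* the callus levels of *Col15a1*-type and *Pi16*-type cells stood at a ratio of 0.86 (0.74 to 0.995). For *Omd* the intervals of osteoblast-like (77.1 to 124) and BMSC-like cells (36.5 to 108) overlapped, and the ungated callus cells had 128 CPM, 29 of 46 UMIs in 1 cell.

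Shares of cells with a UMI were compared after thinning each cell to 2000 UMIs, with shallower cells left out. *Fmod* was then found in 31.8% of tendon-like callus cells (18.6 to 47.6) and in 0 of 583 callus B-lineage cells, which should lack it and where 0 cells allow a share of up to 0.515%. Without thinning the shares were 52.3% and 0%, at median depths of 9863.5 and 3339 UMIs. *Aspn* was found in 79.5% of tendon-like cells (64.7 to 90.2), or 90.9% unthinned, and in 0% of B-lineage cells, or 0.81% unthinned. *Omd* was found in 19.4% of osteoblast-like cells (7.45 to 37.5), or 38.9% unthinned, and in 0.17% of B-lineage cells. *Dcn*, the most abundant member, reached 1.54% of callus B-lineage cells, which is the background to set beside its 31.2% of BMSC-like cells.

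*Pi16*-type cells hold an inflammatory subset, taken here as at least 5 UMIs of *Ptx3*, *Has1* and *Tnfaip6* per 10000, with 125 of 181 intact and 68 of 104 callus cells above that level. In the callus *Bgn* was at 81.5 CPM in the inflammatory and 192 in the other cells, 0.42 times (0.27 to 0.65), and *Lum* at 517 and 886, 0.58 times (0.49 to 0.70). The cell with 31 of the callus *Bgn* UMIs was among the others, and without it the counts were 44 and 16 UMIs, a ratio of 1.16 (0.64 to 2.21). In the intact library *Lum* was 0.79 times (0.66 to 0.94) and *Ogn* 0.78 times (0.71 to 0.85) in the inflammatory cells, whereas *Prelp* was 1.45-fold higher (1.04 to 2.07). The callus did not repeat the last 2, with *Ogn* at 1.04 times (0.91 to 1.20) and *Prelp* at 0.72 times (0.51 to 1.04). Leaving out the cell highest in *Prelp* gave 1.39 (0.995 to 1.99) for intact and 0.65 (0.45 to 0.95) for callus cells. *Dcn* was 0.87 times in intact and 0.91 times in callus inflammatory cells. Apart from *Bgn* with that cell included, the named differences were below 2-fold.

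The patterns of members over the 7 groups are given as a description over groups that share 2 libraries. *Prelp* and *Ogn* were most alike (Pearson's r of log2(CPM + 10) 0.94 over 7 groups), followed by *Dcn* and *Lum* (0.90), *Aspn* and *Prelp* (0.89) and *Prelp* and *Podn* (0.86). *Omd* ran opposite to *Podn* (-0.81) and *Prelp* (-0.75). *Bgn* correlated with no other member above 0.52. The closest genes named next were picked as the best of 6184 over only 7 groups, so that choice itself favours a high r. *Tnmd*, named for *Fmod*, was also a gate marker of the tendon-like cells. Among 6184 genes searched, those closest to each member were *Klf2* and *Crip2* for *Dcn*, *Tmed9* and *Fibin* for *Bgn*, *Pcdh7* and *Ccpg1* for *Lum*, *Tnmd* and *Ccl5* for *Fmod*, *Pkd2* and *Ccn3* for *Aspn*, *Pam* and *Angptl2* for *Prelp*, *Pnp* and *Sos2* for *Ogn*, *Cycs* and *Nbas* for *Omd*, and *Lysmd2* and *Ift81* for *Podn*, with r from 0.95 to 0.99.

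A wider list of 9 related repeat genes was looked up, of which *Epyc*, *Optc*, *Nyx* and *Nepn* had under 20 UMIs. *Ecm2*, which lies 11.7 kb before *Aspn*, was at 66.4 CPM in intact and 65.0 in callus *Pi16*-type cells, at 212 and 217 in *Col15a1*-type cells, and at 217 in tendon-like cells. *Podnl1*, a paralogue of *Podn*, was at 165 CPM (38 UMIs) in BMSC-like and 32.3 (24 UMIs) in osteoblast-like cells, where *Podn* had 17.4 and 0. *Chad* was in the 2 tendon-like cells named above, with 2 further UMIs in osteoblast-like callus cells and 1 in intact tendon-like cells. *Tsku* was at 23.9 and 20.4 CPM in the *Pi16* type and at 27.1 (6 UMIs) in callus *Col15a1*-type cells. *Chadl* was at 14.8 CPM (11 UMIs) in osteoblast-like, 15.4 (7 UMIs) in tendon-like and 19.4 (7 UMIs) in ungated callus cells. In intact *Col15a1*-type cells *Chadl* was at 15.8 CPM (7 UMIs). *Podn* and *Podnl1* thus led in different types.

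Of 28 chain-building genes, 22 were counted between callus and intact *Pi16*-type cells and none was 2-fold apart, where 3.39% of all genes were higher and 2.97% lower. Between intact *Col15a1*-type and *Pi16*-type cells 2 of 21 were higher and 1 lower (8.02% and 9.53% of all genes). In the callus 1 was higher and 2 lower of 16 (7.75% and 9.34% of all genes). Against the *Pi16* type, 2 were higher and 2 lower of 18 in tendon-like cells (8.09% and 11% of all genes). The counts were 5 and 4 of 19 in osteoblast-like (8.67% and 36%) and 2 and 4 of 17 in BMSC-like cells (17.7% and 15.1%). Of these genes *Ugdh*, which makes the UDP-glucuronate used for chain synthesis, was at 1274 CPM in intact *Pi16*-type and 165 in *Col15a1*-type cells. It was 7.72-fold lower in the latter (6.11 to 9.90), where the summed RNA of the 10 members was at 2.16 times the *Pi16*-type level. In the callus *Ugdh* was 5.71-fold lower in *Col15a1*-type, 6.70-fold in tendon-like, 14.9-fold in osteoblast-like and 24.2-fold in BMSC-like cells than in the *Pi16* type. *Chst1*, a keratan sulfate sulfotransferase, was 2.14-fold lower in callus than in intact *Pi16*-type cells (1.41 to 3.35), the only one of 5 counted keratan sulfate and tyrosine sulfation genes that was 2-fold apart, on 29 and 106 UMIs.

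Among the collagens the family binds, several of which are also in the stromal list, the *Col15a1* type was higher than the intact *Pi16* type in *Col6a1* (2.02-fold), *Col6a2* (2.79-fold) and *Col6a3* (3.39-fold) and lower in *Col14a1* (3.65-fold), 3 higher and 1 lower of 10. Of all genes 8.02% were higher and 9.53% lower in that comparison. Tendon-like cells had *Col12a1* 8.76-fold (6.07 to 12.98) and *Col5a2* 2.35-fold above the *Pi16* type. *Col12a1* was also 11.2-fold higher in BMSC-like (7.63 to 16.9) and 3.81-fold higher in osteoblast-like cells (2.60 to 5.70). It was the only 1 of 10 collagens that was higher in BMSC-like cells, where 6 were lower, beside 17.7% and 15.1% of all genes. In osteoblast-like cells *Col1a1* was at 116472 and *Col1a2* at 102671 CPM, 23.0-fold and 16.3-fold higher, while *Col3a1* was 118-fold lower (92.4 to 152) and *Col14a1*, partner of decorin in soft tissue, had 0 of 1043 UMIs. Here 4 of 10 collagens were higher and 5 lower, beside 8.67% and 36% of all genes.

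In tendon-like cells 5 of 12 counted ligand and receptor genes were higher and 4 lower, beside 8.09% and 11% of all genes, among them *Tgfb3* 8.34-fold (5.39 to 13.4) and *Ccn2* 48.2-fold (21.7 to 133) higher and *Bmp2* 9.62-fold lower (4.52 to 24.5). In osteoblast-like cells 3 of 13 were higher and 7 lower, beside 8.67% and 36% of all genes. *Tgfb1* was 11.7-fold higher (5.95 to 26.4), whereas *Tgfb2* was 62.4-fold, *Tgfbr2* 29.4-fold, *Tgfbr3* 21.1-fold and *Bmp2* 7.84-fold lower. For BMSC-like cells the counts were 3 of 12 higher and 4 lower, beside 17.7% and 15.1% of all genes. *Ccn2* was 85.9-fold higher there (38.6 to 237.9) and *Bmp2* 4.85-fold lower (2.28 to 12.3). Of the proteases that cut members, *Adamts5* was 6.11-fold lower in tendon-like (4.99 to 7.54) and 18.5-fold lower in osteoblast-like cells than in the *Pi16* type, and *Mmp13*, with 672 UMIs in osteoblast-like cells, had 0 in the *Pi16* type. BMSC-like cells had 607 *Mmp13* UMIs, 2641 CPM against 905 in osteoblast-like cells, and *Adamts5* was 2.43-fold lower in BMSC-like cells than in the *Pi16* type. Of the counted proteases, 0 of 8 were higher and 1 lower in tendon-like cells (8.09% and 11% of all genes). The counts were 1 and 5 of 9 in osteoblast-like (8.67% and 36%) and 1 and 3 of 8 in BMSC-like cells (17.7% and 15.1%). The median log2 ratio of the members in tendon-like over *Pi16*-type cells was 1.48, against 0.08 for the chain-building genes, 0.48 for the collagens and -0.05 for all genes.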

How the data were processed

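tdTomato+ cells of intact and fractured femora, 1 library each of 3 pooled mice, were profiled with 10x Genomics 3′ kit version 3. The authors made the deposited UMI counts with Cell Ranger 6.0.0, per the file headers, on mm10, per the labels. Values are raw counts of barcodes called as cells, and reads per UMI are not given in the sources used here.

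Barcodes under 500 genes or over 10% mitochondrial UMIs were dropped, which left 4502. A cell was stromal when the mean log level of 10 stromal genes was at least 1 and above every other list. The erythroid list was left out of that step because haemoglobin RNA was found in many cells. Types were assigned to the list with the highest mean z score when it led by at least 0.25 SD. Counts were summed per type and library and divided by the total, with exact Poisson intervals, exact conditional binomial intervals for ratios and Clopper-Pearson intervals for shares. A gene counted with at least 20 UMIs over both groups and was called at 2-fold. Where a group had no UMI, its count was set to 3 for values at a floor and for limits. Groups needed 15 cells. No p-values were computed, since each condition is 1 library and cells are not replicates, and the ratio script was tested on simulated data. Named genes were all members, and a selection of the list genes with at least 100 UMIs and a 2-fold difference. List genes that are not named can also be 2-fold apart. Members, lists and tests were chosen with earlier results of these data known, and the gate limits and splits after seeing the values. Scrublet (scanpy 1.11.5) marked 3 intact and 4 callus cells as doublets, which stayed in except in 1 alternative, so few that doublets were in effect not removed. Python 3.11.15, numpy 2.4.6 and scipy 1.17.1 were used. Alternatives were other cell filters, Leiden clusters in place of gates, the mean over cells, totals without the members, and cells near a gate limit left out.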

Additional observations from a re-analysis of the deposited data

Results flagged for a closer look

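*Dcn* moved in opposite directions in the fibroblast types, at 1.27 times the intact level in callus *Pi16*-type and 0.90 times in callus *Col15a1*-type cells. The ratio of these ratios was 1.418 (1.34 to 1.497, counting error only), and with 1 library per condition the difference was not tested.

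Cells that were not stromal also held some family UMIs above the level in B-lineage cells of the same library. In the intact library *Prelp* was at 29.01 CPM in muscle cells (11 UMIs in 5 of 83 cells). In the callus *Bgn* was at 69.57 CPM in endothelial cells, 35 UMIs in 13 of 106 cells with at most 5 in any cell. Muscle cells of the callus had *Dcn* at 93.88, *Ogn* at 17.07, *Aspn* at 12.8 and *Prelp* at 7.468 CPM. One muscle-led cell held 85 of the 88 *Dcn* UMIs, 11 of the 12 *Aspn* UMIs were in 1 cell, 9 of the 16 *Ogn* UMIs in 1 cell and 3 of the 7 *Prelp* UMIs in 1 cell. The intact B-lineage level of *Prelp* was 1.93 CPM. The B-lineage levels were 19.4 for *Dcn*, 0.74 for *Bgn* and for *Ogn*, and 1.72 for *Aspn* in the callus, with 0 *Prelp* UMIs.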

How the results depend on the processing

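In all, 14 other settings were tried. Of 34 calls of a member at least 2-fold apart, given 317 values under the alternatives, 315 stayed past 2-fold in the same direction, and no call reversed. The 2 that did not were *Dcn* in osteoblast-like over *Pi16*-type cells, at -0.83 on the log2 scale with Leiden clusters and at -0.43 when centred on the median of all genes. A call that fell under 20 UMIs got no value and is not among the 317. This befell *Kera* in tendon-like over *Pi16*-type and over *Col15a1*-type cells without the 2 cells highest in *Fmod*, so these calls were lost as well. Between callus and intact *Col15a1*-type cells the 0 members became 2 with Leiden clusters (*Aspn* 1.91 and *Ogn* -1.02, log2), 1 with the mean over cells (*Aspn*, 1.14) and 1 without cells near the gate limit (*Aspn*, 1.65). In *Pi16*-type cells the 1 member became 2 with the mean over cells (*Omd*, -1.14). The summed family level, in CPM, moved beyond counting error as follows. With a stricter filter on genes and mitochondrial share, BMSC-like cells were at 3889. With Leiden clusters, callus *Pi16*-type cells were at 10390, intact and callus *Col15a1*-type cells at 21170 and 18080, tendon-like cells at 20550, osteoblast-like cells at 7515 and BMSC-like cells at 2627. Without cells near the gate limit, intact and callus *Col15a1*-type cells were at 20590 and 19690 and tendon-like cells at 21640. With a stromal score above the erythroid score, chosen after seeing the data, callus *Pi16*-type cells were at 10960, intact *Col15a1*-type cells at 20120 and tendon-like cells at 22800, and without the 2 cells highest in *Fmod* tendon-like cells were at 21560. Shares without thinning, also chosen afterwards, were 52.3% for *Fmod*, 90.9% for *Aspn* and 38.9% for *Omd*. After thinning, 3.23% of osteoblast-like cells had at least 2 *Omd* UMIs. Splits of cells within a type were also recomputed without the cells highest in a member, chosen after seeing the data, as given in the report. Values past 2-fold only under an alternative were 15 in all, among them *Aspn* in callus *Col15a1*-type over *Pi16*-type cells, from -1.05 to -1.20. The causes were not tested. A further 105 values of these counts, levels and shares stayed within their limits. Of the ratios of single members under the alternatives, 54 moved beyond their counting interval and 576 stayed within it. With 1 library per condition no replicate could be left out. No paired analysis was possible because each group is 1 pooled library.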

Other observations

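The 8 tendon-like cells of the intact library were too few for a comparison. They had *Dcn* at 26151, *Fmod* at 2002, *Ogn* at 2837, *Bgn* at 1502, *Prelp* at 1454 and *Aspn* at 715 CPM, with 0 *Kera* UMIs, and 70 of the 84 *Fmod* UMIs lay in 2 cells. Clusters in place of gates put 24 intact and 79 callus cells in a tendon-like cluster, a broader set than the gate. Between those, *Aspn* was at 475 CPM in the intact and 1772 in the callus cells, 3.73-fold higher (2.98 to 4.74), and *Bgn* 1.89-fold higher (1.59 to 2.25). *Fmod* was at 498 and 545 CPM, a ratio of 1.09 (0.86 to 1.40). *Ogn* was 0.55 times (0.50 to 0.61), *Prelp* 0.57 times (0.45 to 0.71) and *Podn* 0.46 times the intact level (0.31 to 0.71). Over all 6112 genes counted there, 14.6% were at least 2-fold higher and 5.61% lower in the callus.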
